A study of Rattus norvegicus with 9 samples.

Results

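Dbp, Tef, Hlf and Nfil3 are transcription factors through which the circadian clock acts on liver genes. They were measured in the livers of 9 Wistar rats with a one-colour Affymetrix array. They were read from every probe set whose gene symbol in the platform annotation is exactly Dbp, Tef, Hlf or Nfil3. There were 9 such probe sets among 31042 in all, for 4 of 14217 named genes: 1 for Dbp, 3 for Tef, 4 for Hlf and 1 for Nfil3. The genes were chosen by their known role and with their measured differences between the groups already in view. Their own group differences are therefore given as a description, without a test. The study divided 36 rats at random into control, model and drug groups of 12, and 3 rats drawn from each group were arrayed. The drug group received an agent labelled 7-P. All 9 samples carried the labels Wistar, male, liver and a weight of 180 to 220 g. What was done to the model rats, whether the drug rats had the same treatment, the animals' age, the dose and the time of day of sampling are not given in the sources used here.

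Dbp, Tef and Hlf are the 3 activators of the proline and acidic amino acid-rich (PAR) basic leucine zipper family. They bind as dimers to a short DNA element, the D-box. Nfil3, also called E4BP4, is a basic leucine zipper repressor that binds the same element. In rodent liver the activators and the repressor are rhythmic with opposite phases, so D-box genes are driven at one time of day and silenced at another. Dbp is itself switched on by Clock and Bmal1 through E-boxes and held down by Per and Cry proteins. Nfil3 is repressed by the nuclear receptors Nr1d1 and Nr1d2, which compete with ROR receptors for a shared element.

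The promoters of Dbp, Tef and Nfil3 are shown because these genes carry the results below. Each covers 250 bases before to 50 bases after a transcript start that the table gives for the gene, from RefSeq (GRCr8), 5′ to 3′ on the gene's strand. These RefSeq windows are chr1:105312006-105312305 for Dbp, chr7:115206577-115206876 for Tef and chr17:12432126-12432425 for Nfil3, all on the plus strand. For Dbp and Nfil3 this start is the outermost one of the annotated gene, while for Tef it lies 9647 bases inside the gene, so the Tef window is that of an internal start. The table matched 3 of the 4 members by symbol, all but Hlf. Capitals mark an E-box (CACGTG), a D-box (TTATGTAA or TTACGTAA) or the core of a ROR element (TAGGTCA), searched on both strands.
Dbp: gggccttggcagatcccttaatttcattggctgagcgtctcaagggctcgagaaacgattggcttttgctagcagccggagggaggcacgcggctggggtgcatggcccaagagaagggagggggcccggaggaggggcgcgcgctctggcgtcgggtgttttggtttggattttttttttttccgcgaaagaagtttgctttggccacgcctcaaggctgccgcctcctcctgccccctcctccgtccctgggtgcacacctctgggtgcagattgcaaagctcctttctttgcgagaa
Tef: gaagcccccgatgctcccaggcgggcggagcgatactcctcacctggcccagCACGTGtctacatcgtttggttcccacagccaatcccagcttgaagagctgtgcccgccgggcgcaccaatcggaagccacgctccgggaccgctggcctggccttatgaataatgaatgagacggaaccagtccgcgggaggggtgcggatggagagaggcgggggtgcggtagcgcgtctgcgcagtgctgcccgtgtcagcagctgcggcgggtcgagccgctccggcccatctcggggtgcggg
Nfil3: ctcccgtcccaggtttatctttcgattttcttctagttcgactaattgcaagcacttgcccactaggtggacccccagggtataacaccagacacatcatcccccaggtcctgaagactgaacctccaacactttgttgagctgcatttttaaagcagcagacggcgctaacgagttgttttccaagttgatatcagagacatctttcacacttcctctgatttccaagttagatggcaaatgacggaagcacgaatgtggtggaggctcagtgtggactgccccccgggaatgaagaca

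The Tef window held 1 match, an E-box 198 bases before that internal start, and the Dbp and Nfil3 windows held no match to these letters. An E-box was found in 6.42% of 33469 RefSeq promoters of the same length, a D-box in 1.01% and the ROR element core in 2.63%. Among genes of the clock loop and of the PAR target list described below, 14 and 19 had a window. E-boxes were in 4 loop genes (Bhlhe40, Bhlhe41, Ciart and Nr1d1) and 2 targets (Elovl3 and Fgf21). D-boxes were in 1 loop gene (Per2) and 3 targets (Alb, Ces1d and Cyp2b2), and the ROR element core in 1 of each (Bmal1 and Por). The sites of the 4 of these genes whose array values are given below are shown, and that of Tef, with 8 bases on each side. The E-box of Nr1d1 lies at chr10:84229632-84229653, minus strand, in the second of its 2 windows, whose start is 2358 bases inside the gene. The D-box of Per2 lies at chr9:99497170-99497193, minus strand, and the ROR element core of Bmal1 at chr1:176766304-176766326, plus strand. Both D-boxes of Ces1d lie at chr19:30046258-30046281, plus strand, and chr19:30046421-30046444, plus strand. Such a match is a description of the letters, not a measured binding site.
Tef E-box: tggcccagCACGTGtctacatc
Nr1d1 E-box: agctcccaCACGTGtctgggga
Per2 D-box: tgtgcgtcTTATGTAAagagagcg
Bmal1 ROR element core: gcagaaagTAGGTCAgggacgga
Ces1d D-box, distal: aaaactgcTTATGTAAgaagctgt
Ces1d D-box, proximal: atcttaaaTTACATAAttgggctg

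Some arrays stood apart from the rest. Although all 9 samples were labelled male, the X-linked RNA Xist had a log2 signal between 8.05 and 10.9 in 7 arrays and was at 2.65 in control 2 and 3.05 in drug 3. The Y-linked gene Eif2s3y was at 6.99 and 7.17 in these 2 arrays and at most 2.53 in the other 7. The ratio of the 3′ to the 5′ Gapdh control signal, a sign of RNA quality, ran from 1.52 to 3.14 in control, 4.09 to 12.7 in model and 1.31 to 9.20 in drug arrays, with control 1 and drug 1 lowest. Values below are quantile-normalized log2 signals, so 1 unit is a 2-fold difference. Differences carry the standard error (SE) of a limma fit over all arrays and the probe sets tested. For member probe sets that were not tested, the SE is that of a fit over all probe sets. The 40% of probe sets with the lowest mean signal, under 2.82, were not tested, which left 18625, including 7 of the 9 members. Of all probe sets tested, 0% passed a Benjamini-Hochberg adjusted p under 0.05 in model against control, and 0% also in the other 2 comparisons and in the F test of any difference. The numbers at an unadjusted limma p under 0.05 were 2245, 610, 1345 and 1387.

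Dbp, the activator with the largest daily swing in liver, had its highest signals in drug livers. It stood at 4.0, 4.08 and 3.34 in control 1, 2 and 3, at 5.48, 2.96 and 2.68 in the model arrays, and at 7.74, 5.30 and 7.75 in the drug arrays. Every drug array lay above every control array, while drug 2 lay below model 1, so drug and model overlapped. The mean was 3.81 ± 0.408 in control, 3.71 ± 1.54 in model and 6.93 ± 1.41 in drug livers (SD, n = 3). Drug minus model was 3.22 (SE 0.81), a 9.33-fold difference of signal, and drug minus control was 3.12 (SE 0.81), or 8.71-fold. Model minus control was -0.10 (SE 0.81), which is smaller than the spread between the model arrays. By size, the first of these was the 4th largest positive difference among the 18625 probe sets tested and the second was the 9th. These comparisons share the drug arrays, and Dbp was chosen with them in view, so the ranks are a description and carry no support. Before normalization the signals were 24.7, 11.5 and 15.0 in control, 43.5, 6.78 and 6.0 in model, and 337, 32.0 and 156 in drug livers, so drug 1 and drug 3 were also apart on the deposited scale. Model 3, at 2.68, was under the filter level, so low values of Dbp lie near the dim end of the array. With 5 signal units added before the log, drug minus model was 2.73 and drug minus control 2.75, so the size of these folds is not exact.

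**Figure D1:**
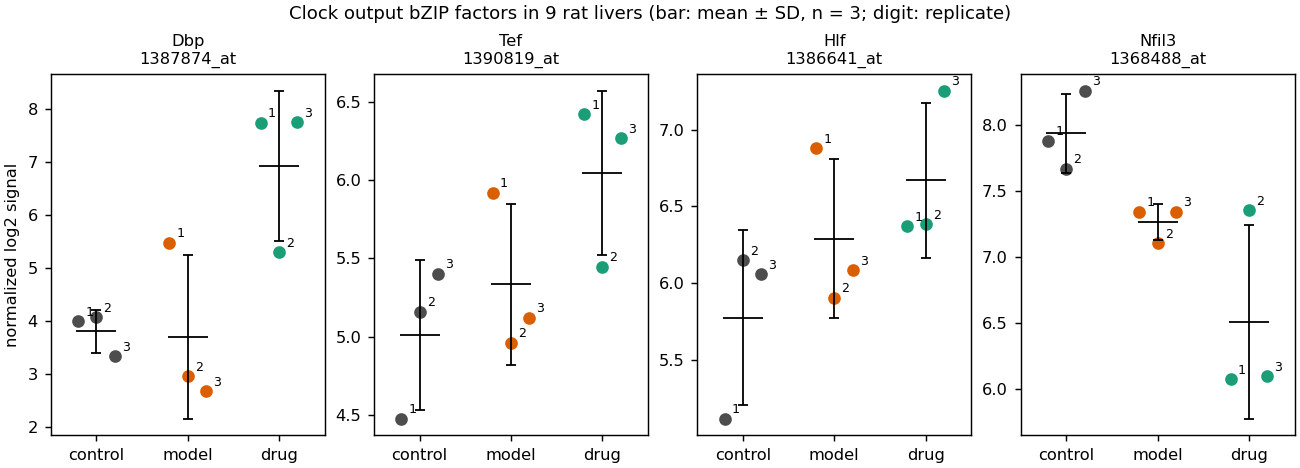
Normalized log2 signal (vertical axis) of the brightest probe set of Dbp, Tef, Hlf and Nfil3 in control, model and drug livers. Points are arrays with their replicate number, bars the mean ± SD (n = 3). Dbp reaches 7.74 and 7.75 in drug 1 and drug 3, where Nfil3 is lowest at 6.08 and 6.10.

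Dbp had differences of like size in fits that each left out a pair of the arrays that stood apart. Each of these fits kept drug 1 or drug 3, the drug arrays with high Dbp. No fit left out both, so how far the differences rest on these arrays was not tested. In a fit that left out control 2 and drug 3, drug minus model was 2.81 and drug minus control 2.85. In one that left out control 1 and drug 1, they were 2.82 and 2.81. Drug minus model was highest without model 1, at 4.11. With a term for the Gapdh ratio it was 2.70, drug minus control was 3.78, and model minus control turned to 1.08, so the sign of that small difference depended on the setting. Dbp moved with the Gapdh ratio inside groups, with an r of -0.62 to its log2 value once group means were removed and -0.25 over all 9 arrays. In the drug arrays the ratio was 1.31, 9.20 and 8.71 beside Dbp at 7.74, 5.30 and 7.75. In the model arrays it was 4.09, 12.7 and 9.77 beside 5.48, 2.96 and 2.68, so drug 2 and the dim model arrays had high ratios, and so did drug 3. For Tef, Hlf and Nfil3 the within-group r was -0.42, 0.17 and 0.37. The part of RNA quality in these levels was not tested beyond the fit with the Gapdh term.

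Tef, the second activator, had smaller differences in the same direction. Its brightest probe set, 1390819_at, was at 4.48, 5.16 and 5.40 in control, 5.92, 4.96 and 5.12 in model, and 6.42, 5.45 and 6.27 in drug livers. All 3 drug arrays lay above all control arrays, drug 2 by only a small margin over control 3. Drug 2 lay below model 1. The difference of drug minus control was 1.04 (SE 0.38), or 2.05-fold, drug minus model 0.71 (SE 0.38), and model minus control 0.32 (SE 0.38). Without control 1 and drug 1, drug minus control was 0.58, and without model 1 model minus control was 0.03.

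The other Tef probe sets gave the same sign in drug against model and drug against control. The second, 1385374_at, was at 3.94, 5.04 and 3.49 in control, 4.65, 3.14 and 3.52 in model, and 5.24, 3.91 and 5.05 in drug livers. Control 2 lay inside the drug range, and all groups overlapped. Drug minus model was 0.96 (SE 0.55), drug minus control 0.58 (SE 0.55), and model minus control -0.38 (SE 0.55), a sign opposite to that of the brightest probe set. The third, 1369919_at, lay under the filter, with 0.09 to 1.54 in control, 0.25 to 3.13 in model and 2.46 to 4.30 in drug livers. Its drug minus control difference of 2.49 was 1.17 when 5 signal units were added before the log.

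Hlf, the third activator, was measured by 4 probe sets whose patterns differed. The brightest, 1386641_at, was at 5.11, 6.15 and 6.06 in control, 6.88, 5.90 and 6.08 in model, and 6.37, 6.38 and 7.26 in drug livers. Each drug value was above each control value, and model 1 lay within the drug range. For drug minus control the difference was 0.90 (SE 0.39), or 1.86-fold, drug minus model 0.38 (SE 0.39) and model minus control 0.51 (SE 0.39). Drug minus model rested largely on drug 3, without which it was 0.09. The next, 1385585_at, was at 5.81, 6.13 and 5.99 in control, 6.05, 5.16 and 5.02 in model, and 6.40, 5.39 and 6.38 in drug livers. Here drug minus control was only 0.08 (SE 0.36), with drug 2 below all control arrays, while drug minus model was 0.64 (SE 0.36). The third, 1374709_at, was at 4.62, 5.22 and 5.0 in control, 4.84, 4.07 and 4.82 in model, and 5.66, 5.09 and 5.99 in drug livers. It alone of the tested activator probe sets had every drug array above every model array, with a difference of 1.0 (SE 0.34). In model minus control these probe sets were at 0.51, -0.56 and -0.37, so the array gives no single direction for Hlf there. The dimmest, 1384811_at, was under the filter, at -1.03 to -0.11 in control, 1.80 to 2.82 in model and -1.22 to 3.35 in drug livers. Which transcript ends the Hlf and Tef probe sets read is not given in the sources used here.

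Nfil3, the repressor, ran the other way. It was at 7.88, 7.67 and 8.26 in control, 7.34, 7.11 and 7.34 in model, and 6.08, 7.35 and 6.10 in drug livers. Control arrays were highest, every model array lay below them, and drug 1 and drug 3 lay below the model arrays, while drug 2 was just above them. The mean was 7.93 ± 0.298 in control, 7.26 ± 0.137 in model and 6.51 ± 0.732 in drug livers (SD, n = 3). From control to drug livers the difference was -1.43 (SE 0.35), so the control signal was 2.69-fold higher. Drug minus model was -0.75 (SE 0.35) and model minus control -0.67 (SE 0.35). Without drug 2, drug minus model was -1.18, while without drug 1 it was -0.54 and without drug 3 it was -0.55. In fits that left out control 2 and drug 3, or control 1 and drug 1, drug minus control was -1.35 and -1.24.

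**Figure D2:**
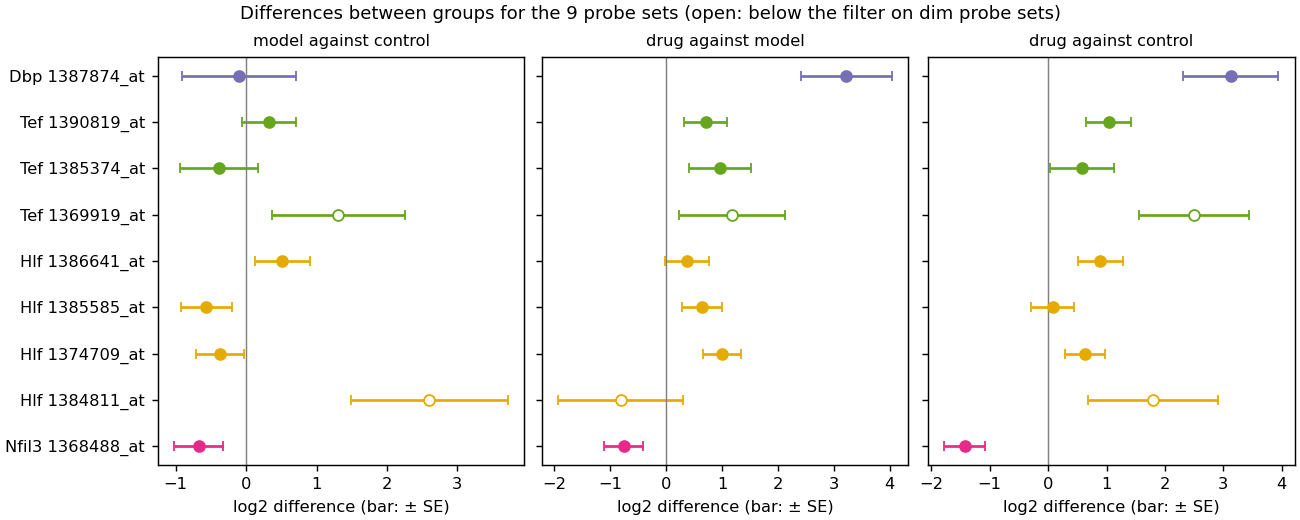
Log2 difference (horizontal axis, bar ± SE) of each of the 9 probe sets in the 3 comparisons. Open points are the Tef and Hlf probe sets below the filter. In drug against control all 8 activator probe sets lie above 0 and Nfil3 is at -1.43.

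Counted over probe sets, the activators had a positive difference in 8 of 8 in drug against control, 7 of 8 in drug against model and 4 of 8 in model against control. Of the 6 activator probe sets tested, the numbers were 6, 6 and 2. These probe sets share samples, and several read the same gene. Drug arrays lay above all control arrays in 4 of the 8 activator probe sets, beside 6.05% of all probe sets tested, and Nfil3 lay wholly below, as 6.49% of all did. These 4 include the dim Tef probe set 1369919_at, which was under the filter, while the share covers tested probe sets only. In drug against model 1 activator probe set lay wholly above, beside 3.35% of all, and Nfil3 overlapped, where 4.70% of all lay wholly below. In model against control 1 dim activator probe set lay wholly above and Nfil3 wholly below, beside 11.8% and 10.9% of all. Nothing is read from these counts, since the genes were chosen on these comparisons.

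Across the 9 arrays the activators ran with each other and against Nfil3. The brightest probe sets of Dbp and Tef had a Pearson r of 0.85 and a Spearman rho of 0.83, Tef and Hlf 0.85 and 0.85, and Dbp and Hlf 0.66 and 0.80. Against Nfil3, Dbp had an r of -0.79 and a rho of -0.40, Tef -0.75 and -0.50, and Hlf -0.60 and -0.45. The values that involve Dbp leaned on drug 1 and drug 3, without which r was 0.55 with Tef, 0.51 with Hlf and -0.11 with Nfil3. Model 2 and model 3, with the lowest Dbp, had Nfil3 signals of 7.11 and 7.34, below all control arrays. With group means removed, r was 0.74 for Dbp and Tef, 0.77 for Tef and Hlf, 0.53 for Dbp and Hlf, and -0.62, -0.40 and -0.16 for Nfil3 with Dbp, Tef and Hlf. These values describe 9 arrays that share the 3 groups, for genes picked on their values, and carry no test.

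**Figure D3:**
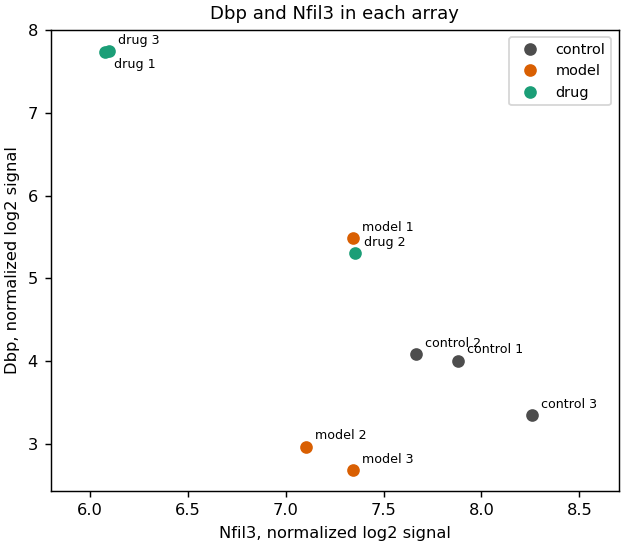
Dbp (vertical axis) against Nfil3 (horizontal axis), both as normalized log2 signal, with each array named. Drug 1 and drug 3 lie together at high Dbp and low Nfil3, drug 2 lies beside model 1, and model 2 and model 3 are low in Dbp without the high Nfil3 of the control arrays.

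The clock loop that drives these factors was read from 18 listed genes, of which 15 were on the array and 14 were tested. The list was written with earlier results of these data known. In drug against control 8 of the 14 had positive and 6 negative differences, with a median of 0.23 beside -0.02 for all probe sets tested, and a list median of -0.13 without normalization and -0.01 without control 2. At an unadjusted limma p under 0.05, 4 were higher and 2 lower, where 4.19% and 3.03% of all probe sets were. In model against control 4 were higher and 0 lower, beside 6.51% and 5.54% of all, and in drug against model 1 was higher and 1 lower, beside 1.47% and 1.80%. By the limma adjusted p, 0 of 14 passed in either direction in each comparison. In rodent liver Nr1d1, Nr1d2, Per2 and Per3 are known to peak near the phase of Dbp, and Bmal1 in antiphase. These are loop genes named for their small F p, so they do not stand for the whole list. Per1, not among them, had a drug minus model difference of -1.61 (SE 0.68), opposite in sign to that of Per2 and Per3.

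Nr1d1, a nuclear receptor that represses Bmal1 and Nfil3, was at 2.12, 3.70 and 4.37 in control, 5.14, 3.85 and 5.30 in model, and 6.47, 6.39 and 7.38 in drug livers. All drug arrays lay above all model and control arrays, drug 2 included. Drug minus control was 3.35 (SE 0.59, limma adjusted p = 0.676), drug minus model 1.98 (SE 0.59, adjusted p = 0.998) and model minus control 1.37 (SE 0.59, adjusted p = 0.41). Its partner Nr1d2 was at 4.87, 4.01 and 5.54 in control, 7.87, 5.48 and 6.80 in model, and 7.71, 7.56 and 7.89 in drug livers. Model 1, the model array highest in Dbp, had an Nr1d2 signal within the drug range.

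Per2 and Per3, which encode repressors of Clock and Bmal1, were also highest in drug livers, while Per1 of the same family was not. Per1, named after its values were seen, was at 4.27, 4.07 and 4.77 in control and 5.45, 5.55 and 5.76 in model livers. In drug livers Per1 was at 5.19, 4.73 and 2.02, below every model array. Its drug minus model difference was -1.61 (SE 0.68, limma adjusted p = 0.998) and drug minus control -0.39 (SE 0.68). Per2 was at 2.98, 4.32 and 4.26 in control, 5.33, 5.01 and 5.06 in model, and 5.78, 5.54 and 7.88 in drug livers, with no overlap between the 3 groups. Its drug minus control difference was 2.55 (SE 0.59, limma adjusted p = 0.676), and 1.81 without drug 3. Per3 was at -0.06, 0.04 and 0.55 in control, 5.16, 0.12 and 4.39 in model, and 4.68, 5.47 and 6.75 in drug livers. The control arrays and model 2 were under the filter level, so the size of its drug minus control difference of 5.46 (SE 1.15) is not exact, and it was 3.17 with 5 signal units added before the log.

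Bmal1, the activator of the loop, and Cry1, a late repressor, were lower in the drug arrays. Bmal1 was at 6.38, 5.46 and 5.45 in control, 4.61, 5.30 and 4.89 in model, and 4.62, 4.49 and 2.51 in drug livers. Drug minus control was -1.89 (SE 0.54, limma adjusted p = 0.676), and -1.21 without drug 3. Cry1 was at 5.74, 6.46 and 5.85 in control, 4.88, 5.74 and 4.93 in model, and 3.86, 5.06 and 4.77 in drug livers, a drug minus control difference of -1.45 (SE 0.39, limma adjusted p = 0.676). Every drug array was below every control array for both genes. The 6 loop genes kept the sign of all 3 differences under each of 21 alternative settings. They were picked as the genes of the list with the smallest p in the limma F test. Several of the settings also leave a difference unchanged by design, so nothing is read from the kept signs.

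**Figure D4:**
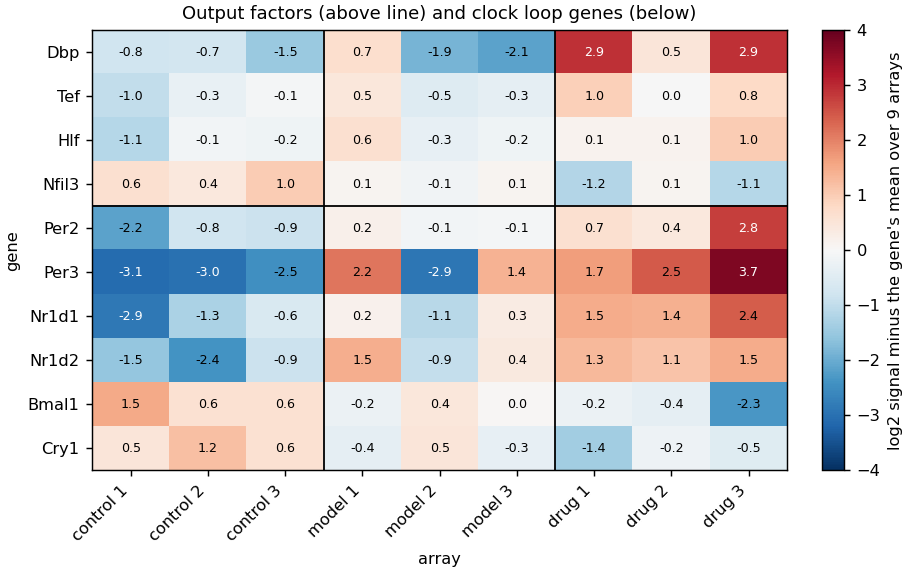
Log2 signal minus the gene's own mean over the 9 arrays (colour and printed number) for the 4 output factors, above the line, and 6 clock loop genes, below it. Columns are arrays. Drug 2 is near its gene mean for Dbp (0.5) and Nfil3 (0.1) but at 2.5 for Per3, 1.4 for Nr1d1 and 1.1 for Nr1d2.

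Drug 2 held different places in different genes. For Dbp and Tef it lay within the model range and for Nfil3 just above it, while for Nr1d1, Per2 and Per3 it lay above every model array and for Bmal1 below them. For Nr1d2 and Cry1 it lay within the model range. Of the neutrophil markers, S100a8 was at 8.32 in drug 2, against 4.75 and 4.41 in drug 1 and drug 3, 4.48 to 6.22 in control and 6.02 to 9.09 in model arrays. S100a9 was at 10.1 in drug 2, against 6.57 and 6.53 in the other drug arrays. Csf3r, the third marker tested, was at 2.41, 4.16 and 4.34 in drug 1, 2 and 3, and did not set drug 2 apart. The mean log2 signal of the 3 neutrophil markers tested, out of 7 listed, was 4.35 to 5.5 in control, 6.34 to 7.88 in model and 4.58 to 7.54 in drug arrays. Camp, a granule gene of the same list, was under the filter. Their part in the levels of Dbp and Nfil3 was not tested. In bulk liver, fewer cells of a type and less RNA per cell cannot be told apart.

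Genes known as targets of the PAR factors in liver had differences of both signs in each comparison. Of 25 listed genes, 21 were on the array and 17 were tested, and again 0 passed by the limma adjusted p in each comparison. In drug against model 9 differences were positive and 8 negative, with a median of 0.01 beside -0.02 for all probe sets. At an unadjusted limma p under 0.05, 2 were higher and 0 lower, beside 1.47% and 1.80% of all probe sets. In drug against control 8 were positive and 9 negative, with a median of -0.07, and 1 was higher and 2 lower at the unadjusted threshold, beside 4.19% and 3.03% of all. In model against control 7 were positive and 10 negative, with a median of -0.14, and 1 was higher and 1 lower, beside 6.51% and 5.54% of all. These medians moved with the scaling. In model against control the list median was -0.61 with median centring and -0.94 without normalization, where all probe sets had -0.07 and -0.40. In drug against control it was -0.39 and -0.68, where all had -0.07 and -0.36.

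Nr1i3, the xenobiotic receptor CAR and a target of the PAR factors, was at 4.07, 5.51 and 3.99 in control, 3.59, 3.46 and 5.14 in model, and 5.11, 5.15 and 6.77 in drug livers. Its drug minus model difference was 1.62 (SE 0.62, limma adjusted p = 0.998), with drug 1 just below model 3. Ces1d, a carboxylesterase whose promoter window holds both D-boxes shown above, was at 9.42, 10.1 and 9.28 in control livers. It was at 5.97, 9.34 and 9.43 in model and 10.4, 9.43 and 10.2 in drug livers, with model 1 far below the others. Its drug minus control difference was 0.37 (SE 0.78). Ces1d was chosen here for its promoter after its values were seen. Acot4, an acyl-CoA thioesterase, was at 6.89, 6.07 and 5.97 in control, 5.68, 5.25 and 4.83 in model, and 5.24, 4.74 and 4.60 in drug livers, lower than control in every model and drug array. Cyp4a3, a fatty acid hydroxylase, had a drug minus control difference of -0.77 (SE 0.31, limma adjusted p = 0.683). Cyp7a1, the rate-limiting enzyme of bile acid synthesis and an early known target of Dbp, was at 9.45, 10.7 and 9.06 in control, 10.9, 10.2 and 11.6 in model, and 10.1, 10.9 and 11.5 in drug livers. It is named after its values were seen, as the target with an unadjusted p under 0.05 that was higher in both model and drug livers. Cyp2a2, listed as a target, followed the arrays low in Xist, at 10.6 in control 2 and 11.05 in drug 3 and at most 3.81 elsewhere, and is also named after its values were seen.

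**Figure D5:**
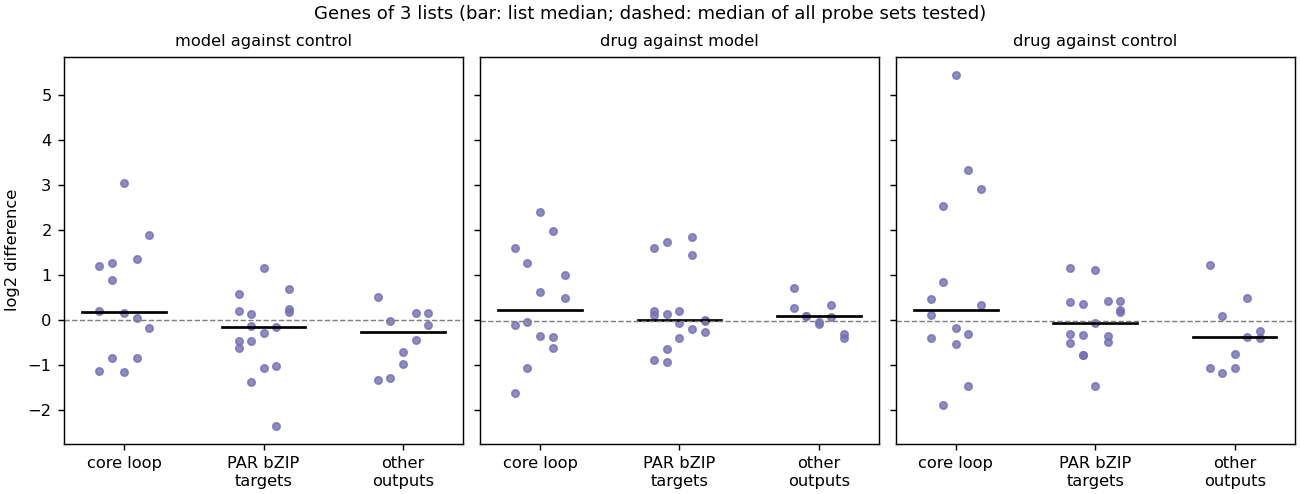
Log2 differences (vertical axis) of the tested genes of 3 lists in the 3 comparisons, 1 point a gene, with the list median as a bar and the median of all probe sets as a dashed line. The clock loop spreads furthest in drug against control, up to 5.46 for Per3, while the medians of the PAR targets lie between -0.14 and 0.01 in this scaling (as low as -0.94 without normalization).

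Other clock-controlled liver genes and related factors were read the same way. Of 12 other clock-controlled genes, 10 were tested. Of these, 7 were negative in model against control and 7 in drug against control. The medians were -0.27 and -0.38, beside 0.02 and -0.02 for all probe sets tested. Without normalization these list medians were -0.69 and -0.65, where all probe sets had -0.40 and -0.36. In drug against model 6 were positive and 4 negative, with a median of 0.09 beside -0.02 for all. Among the 10 genes Avpr1a, a vasopressin receptor, was at 8.69 to 9.22 in control, 7.19 to 7.92 in model and 7.26 to 8.92 in drug livers. Insig2, which holds back sterol regulatory proteins, was at 8.03 to 8.85 in control and 6.74 to 8.01 in drug livers. Tspan4, a tetraspanin, had a drug minus control difference of -0.74 (SE 0.50). The C/EBP factors, basic leucine zipper proteins related to the PAR family, had 5 of 6 genes tested. Of these Cebpd was at 4.92 to 6.49 in model and 3.25 to 4.8 in drug livers, a drug minus model difference of -1.37 (SE 0.50, limma adjusted p = 0.998). Cebpg and Ddit3 had drug minus control differences of 0.70 (SE 0.28) and 0.58 (SE 0.34). Among 7 tested liver-enriched factors, Prox1 was at 8.12 to 8.47 in control, 9.13 to 9.57 in model and 7.47 to 9.25 in drug livers. Hnf4a and Foxa3 had model minus control differences of 0.46 (SE 0.27) and -0.96 (SE 0.54). That of Hnf4a was -0.34 without normalization and -0.01 with median centring, and that of Foxa3 was -0.02 with the Gapdh term. In these 3 lists 0 genes passed by the limma adjusted p, and at an unadjusted p under 0.05 between 0 and 2 genes of each list did in each comparison, where 1.47% to 6.51% of all probe sets did in each direction.

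The genes whose signals ran most like each member were taken from 10428 genes, by the Pearson r with its brightest probe set over the 9 arrays. For Dbp they were Cdk8 (r = 0.94), Hsd17b2 (0.93), Csrnp1 (0.93), Sepsecs (0.90) and Csgalnact2 (0.88), and with group means removed r was between 0.79 and 0.95. For Tef they were Cdk8 (0.92), Cryzl1-ps1 (0.90), Armcx2 (0.90), Sclt1 (0.89) and Tapt1 (0.89). For Hlf they were Rnf169 (0.92), Txlng (0.91), Sgsm2 (0.91), Rreb1 (0.90) and Per2 (0.89), the last a gene of the loop. For Nfil3 they were Rrp1 (0.96), Rin3 (0.95), Mboat7 (0.95), Hs6st1 (0.91) and Lrrn4cl (0.91). By Spearman rho, 1 of these 5 for Dbp, 2 for Tef, 2 for Hlf and 1 for Nfil3 stayed among the first 5. With group means removed the numbers were 0, 0, 1 and 0, so the names depend on the measure at 9 arrays.

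Hepatocyte markers, which define the labelled tissue, were bright in every array. The mean log2 signal of the 5 tested, out of 6 listed, was between 11.7 and 12.1 in all arrays. Macrophage markers (9 tested of 11 listed) averaged 5.77 to 6.65 in control, 6.65 to 7.63 in model and 6.37 to 7.54 in drug arrays. Markers of sinusoidal endothelium (5 of 6) averaged 6.46 to 6.64, 6.58 to 6.96 and 6.01 to 6.32, lowest in the drug group. T and natural killer cell markers (10 of 12) averaged 2.56 to 4.08, 3.53 to 4.26 and 3.54 to 4.24, and for B cells 1 of 4 was tested. Stellate cell markers (8 of 8) averaged 5.34 to 5.67, 5.14 to 5.61 and 5.02 to 5.40, and bile duct markers (3 of 6) 4.39 to 4.77, 3.09 to 4.98 and 4.05 to 4.75. Below the filter were Camp, Cd4, Ncr1, Cd79b, Krt7 and Cftr, 6 of the 50 marker genes on the array. The mean of the endothelial markers and the signal of Nfil3 were both lower in the drug group. In drug against control, Gpr182 was at -1.20 (SE 0.27) and Lyve1 at -0.48 (SE 0.35). Kdr, Pecam1 and Stab2 were at -0.22 (SE 0.38), -0.05 (SE 0.26) and 0.04 (SE 0.30). In this comparison the lower mean therefore did not hold for each marker. In drug against model all 5 differences were negative. For 4 of the 5, every drug array lay below every model array, as for 4.70% of all probe sets tested. Lyve1 was at -1.24 (SE 0.35), Gpr182 -0.82 (SE 0.27), Stab2 -0.59 (SE 0.30), Pecam1 -0.50 (SE 0.26) and Kdr -0.06 (SE 0.38). The part of the endothelial markers in the Nfil3 level was not tested.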

How the data were processed

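Total RNA of 9 livers was labelled with biotin and hybridised, 1 array a rat, per the labels' protocols. The values are the authors' deposited signal intensities, 1 linear value for each probe set and array, and GCOS 1.2 is named per the submitters' processing notes. How the software was set, and whether arrays were scaled, is not given in the sources used here. Of 31099 probe sets, 57 controls were left out, and of the other 31042, 20826 had 1 gene symbol, 436 several and 9780 none.

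Intensities were put on the log2 scale and quantile-normalized, because 2% trimmed means of the arrays ran from 33.2 to 80.4. Limma 3.58.1 in R 4.3.3 fitted 1 term a group over all 9 arrays with an intensity trend. Tests were two-sided with Benjamini-Hochberg adjustment over 18625 probe sets at or above the 40th percentile of mean signal. A gene in a list was its probe set with the highest mean. The fit was tested on simulated data. The members and lists were chosen with earlier results of these data known.

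Named were all members, the 6 loop genes and the 3 genes of each other list with the smallest F p, and the 5 genes most like each member. Genes marked in the text, and marker genes, were added. Alternatives were 3 other scalings, an offset of 5 signal units, 2 other filters, no trend, only the groups compared, the replicate number as a block, a term for the log2 Gapdh ratio, and arrays left out. The replicate numbers were not taken to pair the animals, though the check described with the alternatives cannot exclude a pairing. The number of arrays limits the precision.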

Additional observations from a re-analysis of the deposited data

How the results depend on the processing

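Of 252 recomputed differences of the brightest member probe sets (4 genes, 3 comparisons, 21 alternatives), 250 moved by less than 1 SD between replicates. The other 2 were Nfil3 without normalization, at -1.26 in model against control and -1.90 in drug against control, a setting in which the probe sets as a whole had medians of -0.40 and -0.36. With the trimmed mean these medians were 0.16 and 0.07. The signs of Dbp, Tef, Hlf and Nfil3 in drug against model and drug against control held in all 21. Several of these settings leave a difference unchanged by design, so they say nothing of how stable it is. They are the 2 other filters, no trend, only the groups compared and the replicate block. Leaving out an array of a group not compared also changes nothing. The sign of Dbp in model against control held in 14 of 21, and that of Tef in 20.

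Counts of probe sets moved more. Without normalization, 1 probe set, Fmo1, passed in model against control and 1 in the F test, and 186 and 694 had an unadjusted p under 0.05 in drug against model and drug against control. The share of higher ones in model against control was 54.0% in the main setting, 9.17% without normalization and 67.0% with the trimmed mean. In drug against model it was 44.9%, 62.4% and 38.5%, and in drug against control 58.1%, 16.9% and 69.0%. With no filter 1191 had an unadjusted p under 0.05 in drug against model, and with the Gapdh term 1083. With only the groups compared 1 passed in drug against model, again Fmo1. Leaving out 1 array in turn, 0 to 1 passed in model against control, 0 to 1 in drug against model and 0 to 1 in the F test, and unadjusted counts ran from 1156 to 3268, 431 to 1077 and 729 to 3761. Without control 2 and drug 3 they were 1298 in model against control and 446 in drug against control. Without control 1 and drug 1, Fmo1 passed in model against control and in drug against model, 1 passed in the F test, and 2756 had an unadjusted p under 0.05 in drug against control. No tested member passed under any of these settings, and nothing is read from this, since the members were chosen on these comparisons. The cause of the changes in count was not tested.

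With the replicate number as a block, 3 probe sets passed in model against control (Scd, Thumpd3-as1 and Siglec5), and 3633, 1082 and 2235 had an unadjusted p under 0.05. Deviations of same-numbered arrays correlated between -0.01 and 0.48, and 3 of 9 arrays correlated best with an array of their own number. These were control 1, model 1 and drug 1. Their r was 0.48 for control 1 and drug 1, 0.39 for model 1 and drug 1, and 0.195 for control 1 and model 1. The numbers were not taken as pairs, though such correlations cannot exclude a pairing or shared handling.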
